A study of Mus musculus with 4 samples.

Results

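The 6 genes described here were the chemokine ligands Ccl17, Ccl22, Ccl24 and Ccl5 and the lectin receptors Asgr2 and Mgl2, out of 32285 genes counted in single-cell RNA sequencing of mouse myeloid-derived suppressor cells (MDSCs). They were taken by symbol. Ccl17 was the gene chosen on its measured values, because it was much lower with isoproterenol (ISO) in wild type macrophage- or dendritic-like cells. The other 5 were set beside it, and members and gene lists were chosen with earlier results of these data known. The comparison is therefore given as a description.

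MDSCs are immature myeloid cells that suppress T cells. They were grown from bone marrow of C57BL/6 mice 6 to 10 weeks old, with interleukin-6 and GM-CSF at 40 ng/ml each, and live CD11b+ cells were sorted on day 4. Of the 4 libraries of the series 2 are described, WT + PBS and WT + ISO, where ISO, a synthetic catecholamine, was given at 10 µM. Both groups were grown with the same cytokines and sorted in the same way, and their tagged cells were pooled after the sort, so they shared the capture. The treatment entry of the labels names ISO for every sample, and the sample titles and the study's methods were followed instead. With 1 library per group, an effect of ISO and a difference between 2 cultures cannot be told apart, no test was possible, and every interval below is a 95% interval of counting error only.

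Ccl17 and Ccl22 are chemokines that draw cells bearing the receptor Ccr4, such as helper and regulatory T cells, and dendritic cells are their best known source. Ccl5 attracts T cells and monocytes, and Ccl24 (eotaxin-2) attracts eosinophils. Mgl2 (CD301b) is a galactose-binding C-type lectin of dendritic cells and macrophages, and Asgr2 is a subunit of the asialoglycoprotein receptor, which takes up galactose-ended glycoproteins. In cultured bone marrow, GM-CSF drives growth of dendritic cells and macrophages, and interleukin-4 acting through Stat6 is a known inducer of Ccl17 and Mgl2.

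The 2 Ccr4 ligands were neighbours in the genome and so were the 2 lectin genes. In RefSeq's annotation of GRCm38.p6, Ccl22 (ENSMUSG00000031779) lay at chr8:94745684-94751388 and Ccl17 (ENSMUSG00000031780) at chr8:94809380-94812038, 57.991 kb apart with 1 protein-coding gene, Cx3cl1, between them. Asgr2 (ENSMUSG00000040963, chr11:70092644-70106187) and Mgl2 (ENSMUSG00000040950, chr11:70130125-70137542) were 23.937 kb apart with 0 protein-coding genes between them. Ccl5 (ENSMUSG00000035042) lay at chr11:83525778-83530518 and Ccl24 (ENSMUSG00000004814) at chr5:135569935-135573123. The 250 bases before the start sites of the 2 Ccr4 ligands are printed because these genes had unlike profiles over the cell groups described below. The Ccl17 window, chr8:94810203-94810452 on the plus strand, lies before a start site inside the outer bounds of the gene, and the Ccl22 window is chr8:94745434-94745683 on the plus strand. Capitals mark matches to motifs of Stat proteins.
Ccl17: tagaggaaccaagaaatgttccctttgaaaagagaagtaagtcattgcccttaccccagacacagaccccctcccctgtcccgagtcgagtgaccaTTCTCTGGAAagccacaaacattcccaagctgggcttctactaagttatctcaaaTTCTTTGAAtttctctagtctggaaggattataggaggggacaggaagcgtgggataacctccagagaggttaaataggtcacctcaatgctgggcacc
Ccl22: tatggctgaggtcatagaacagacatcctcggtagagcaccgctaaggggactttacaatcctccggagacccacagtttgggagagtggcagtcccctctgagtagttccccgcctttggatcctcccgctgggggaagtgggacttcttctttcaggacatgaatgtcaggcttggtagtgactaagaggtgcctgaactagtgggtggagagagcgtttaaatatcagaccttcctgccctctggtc
The Ccl17 window held 1 match to the Stat6 spacing TTCNNNNGAA, TTCTCTGGAA at bases -154 to -145 from the start, and 1 match to the spacing of other Stat proteins TTCNNNGAA, TTCTTTGAA at bases -99 to -91. Of 32851 promoter windows of the same length, 5.85% held TTCNNNNGAA and 7.02% held TTCNNNGAA on either strand. The cAMP response element TGACGTCA (in 1.55% of windows), its shorter form TGACG (17.8%, and contained in the full element), the PU.1-IRF composite GGAANNGAAA (2.30%) and the NF-kB motif (7.25%) had no match in the Ccl17 window. None of the 6 motifs matched in the Ccl22 window or in the same windows of Asgr2 and Mgl2. A match is a description of the letters and says nothing on binding.

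The 4 libraries together held 9525 cell barcodes, and 9303 cells were kept, 2210 of them in WT + PBS and 2264 in WT + ISO (values below keep this order). 0 barcodes were shared between libraries. Unique molecular identifiers (UMIs), each counting 1 captured transcript, came to 24393687 and 29400468. The median per cell was 8088.5 and 10252, the higher in WT + ISO, where the mix of cells also differed. The sources used here differ on whether the mice were of both sexes or female, and Xist was at 387 and 360 UMIs per 1000000 UMIs (CPM) and the Y-linked Ddx3y at 0.287 and 0.238 CPM.

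Cells of all 4 libraries were clustered together, without the 6 genes and without the gene lists used below, and clusters were named from marker genes. The macrophage- or dendritic-like class held 431 and 273 cells, or 19.5% and 12.1% of the library. Its largest cluster met the marker rule for monocytes as well as that for macrophages. Within the class, 71 and 17 cells formed an MHC class II-high dendritic-like group, 25 and 14 a migratory dendritic-like group and 57 and 41 a macrophage-like group. The remaining 278 and 201 cells held 49 and 23 cells led by the neutrophil granule genes Ngp and Camp, which were specific-granule neutrophil-like by their markers, and unnamed cells led by proliferation genes such as Top2a and Ccnb2 or by Stfa2l1. Over all 4 libraries, every cell of the MHC class II-high group had a UMI of Cd74, the invariant chain of MHC class II, and 58.9% had H2-Aa and 33.0% Zbtb46, a factor of conventional dendritic cells. The defining dendritic markers Flt3 and Cd209a, however, were found in 1.34% of its cells each, and 38.8% had a UMI of the macrophage gene C1qb, so the dendritic label rests mainly on MHC class II genes. The migratory group carried Ccr7, the receptor that guides dendritic cells to lymph nodes, in 98.7% of cells and the actin bundler Fscn1 in 80.8%, while its further marker Ccl19 was at 0 and so were the cDC1 markers Xcr1 and Clec9a.

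Ccl17 was found almost entirely in the macrophage- or dendritic-like class, and within it in few cells. In WT + PBS 78 cells had a UMI of Ccl17, together 1548 UMIs, and in WT + ISO 24 cells with 246 UMIs. The class held 98.8% and 96.7% of these UMIs. Of the Ccl17 UMIs of the library, the MHC class II-high group held 44.6% and 4.47%, the remaining cells of the class 26.6% and 6.10%, and the migratory group 26.6% and 86.2%. The migratory group therefore held most of the Ccl17 that was left in WT + ISO. In neutrophil-like cells, which should lack the gene, the share of cells with a UMI was 0.864% and 0.302% at a median depth of 7445 and 9158 UMIs. The class was deeper, with a median of 15301 and 17253 UMIs, and its shares of Ccl17 cells were 15.1% (11.8 to 18.8) and 5.86% (3.39 to 9.34). These were 65 of 431 and 16 of 273 cells, both above the neutrophil-like background. With every cell thinned to 2000 UMIs, which left out 1 cell of each library, the shares were 10.0% and 2.94%. WT + ISO was below WT + PBS on either reading, although its cells of the class had the higher median of UMIs.

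**Figure D1:**
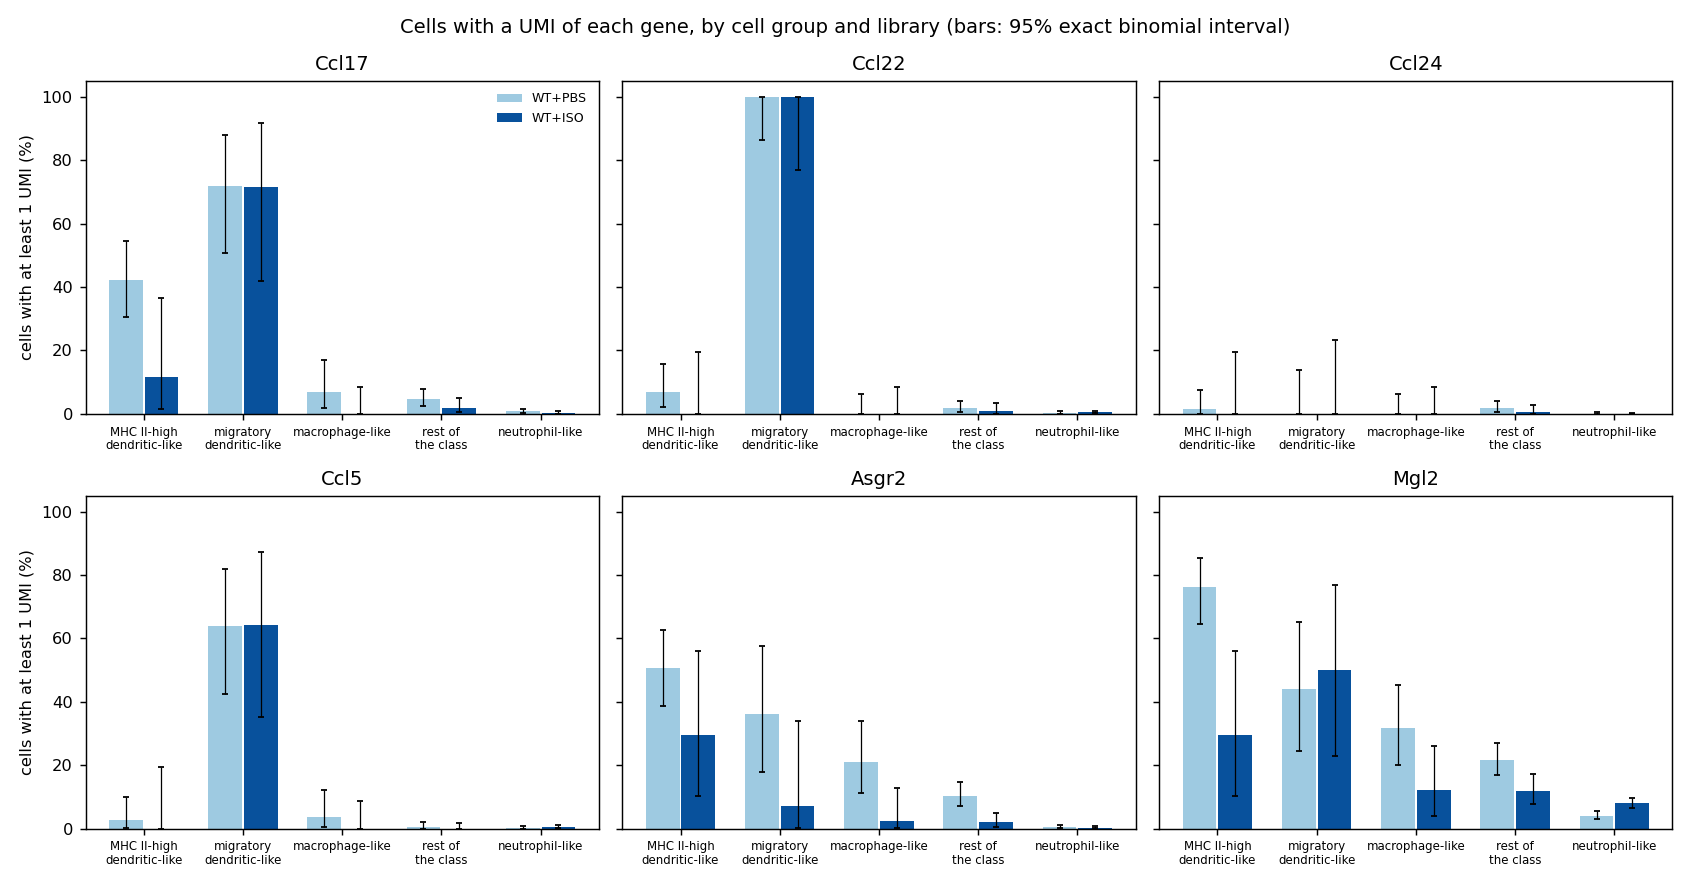
Share of cells with at least 1 UMI (vertical axis, percent) for each of the 6 genes, in the 4 groups of the macrophage- or dendritic-like class and in neutrophil-like cells, with 1 bar per WT library and 95% exact binomial intervals of counting error. Ccl22 reaches 25 of 25 and 14 of 14 cells in the migratory group, while Ccl17, Asgr2 and Mgl2 also mark the MHC class II-high group, where the WT + ISO bar is the lower for each.

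Summed over the class, Ccl17 had 1530 and 238 UMIs, which is 222 and 49.0 CPM. ISO over PBS, the log2 ratio was -2.18 (-2.38 to -1.98), or 4.53-fold lower. Without the neutrophil-like cells led by Ngp and Camp the ratio was -2.21, and those of Ccl22, Ccl5, Asgr2 and Mgl2 in the class were -0.65, 0.24, -3.93 and -1.29. Among genes with at least 50 UMIs over both libraries, 1.24% of 9677 were at least 2-fold lower with ISO and 0.548% at least 2-fold higher, and 17 genes were lower still than Ccl17. Of the 6 genes, 5 had enough UMIs to be compared, and Ccl17, Asgr2 and Mgl2 were past 2-fold. Because these values chose the set, nothing is read from that count. In all cells of each library together the Ccl17 levels were 63.5 and 8.37 CPM, with a log2 ratio of -2.92. There 2.54% of 11852 genes were at least 2-fold lower and 0.219% at least 2-fold higher.

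**Figure D2:**
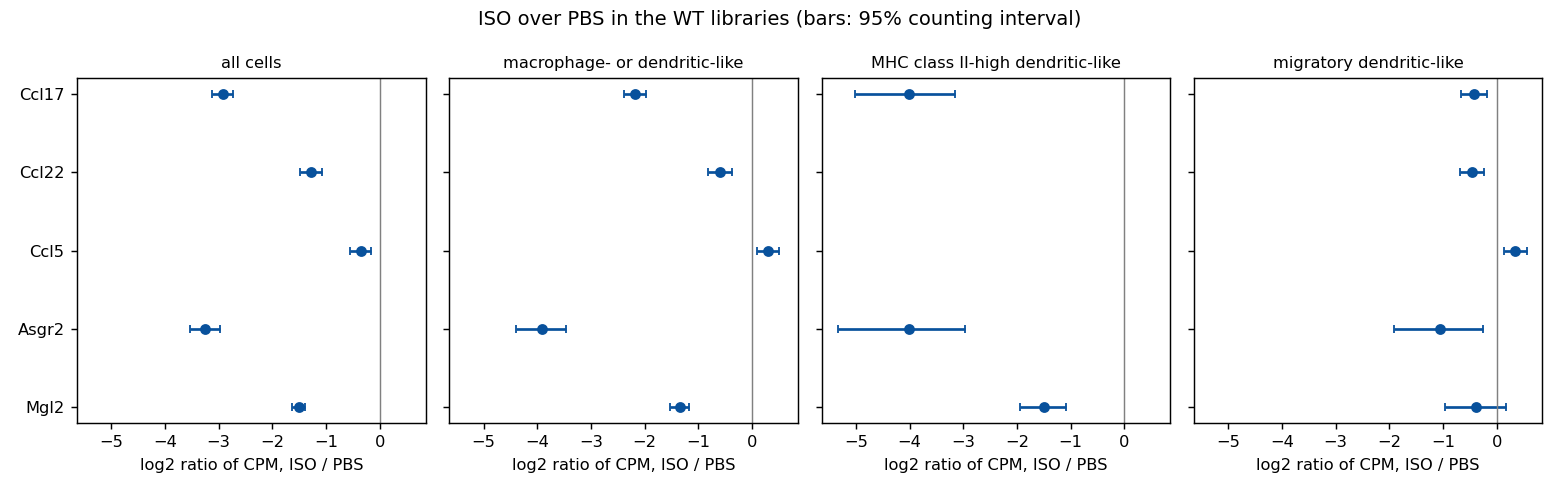
Log2 ratio of CPM, ISO over PBS in the WT libraries (horizontal axis), for 5 genes in all cells, in the class and in its 2 dendritic-like groups, with 95% intervals of counting error, where a gene under 50 UMIs has no point. In the class, Ccl17 is at -2.18 and Asgr2 at -3.92, while in the migratory group Ccl17 and Ccl22 lie side by side at -0.43 and -0.45.

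The groups within the class differed in how Ccl17 stood with ISO. In the MHC class II-high group Ccl17 had 691 and 11 UMIs (622 and 38.7 CPM) in 30 of 71 and 2 of 17 cells. The log2 ratio was -4.01 (-5.02 to -3.16), 16.1-fold lower. Marker levels of the group also differed between the libraries, as given below. In this group 3.76% of 4283 genes were at least 2-fold lower and 2.05% at least 2-fold higher. The WT + ISO library gave the group 17 cells, which limits its share, 11.8%, to an interval of 1.46% to 36.4%. The WT + PBS share was 42.3% (30.6 to 54.6), so the intervals of the shares overlapped.

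In the migratory group the gap was much smaller. Ccl17 had 412 and 212 UMIs (1167 and 869 CPM), in 18 of 25 and 10 of 14 cells. WT + ISO was the lower in CPM, while the shares of cells lay close together. The log2 ratio was -0.43 (-0.67 to -0.18). Here 3.11% of 1959 genes were at least 2-fold lower and 2.96% at least 2-fold higher.

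Without the migratory group, the class had 1118 and 26 UMIs of Ccl17 (171 and 5.64 CPM). The log2 ratio was then -4.92 (-5.54 to -4.36), or 30.3-fold lower. Beside it, 1.57% of 9517 genes were at least 2-fold lower and 0.588% at least 2-fold higher. In the remainder of the class Ccl17 had 412 and 15 UMIs, a log2 ratio of -4.47 (-5.32 to -3.73). These lay in 13 of 278 and 4 of 201 cells, and a single cell held 201 and 10 of them. The shares of cells, 4.68% (2.51 to 7.86) and 1.99% (0.545 to 5.02), had overlapping intervals. Without the top cell of each library 211 and 5 UMIs were left. The macrophage-like group had 15 and 0 UMIs, too few to be compared.

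Single cells carried much of the Ccl17 signal. The highest Ccl17 count in a cell was 201 and 136 UMIs, and the second highest was 201 and 29. In WT + ISO the top cell, of the migratory group, held 57.1% of the 238 UMIs of the class. WT + PBS needed 7 cells for 50% of its UMIs. Cells with at least 10 UMIs of Ccl17 numbered 24 and 7. With the top cell of each library left out, the class ratio was -3.19 (-3.49 to -2.90). This kept a cell with 201 UMIs in WT + PBS and took out most of the UMIs of WT + ISO. In the MHC class II-high group the counts became 590 and 1 UMIs, and in the migratory group the ratio became -0.74.

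**Figure D3:**
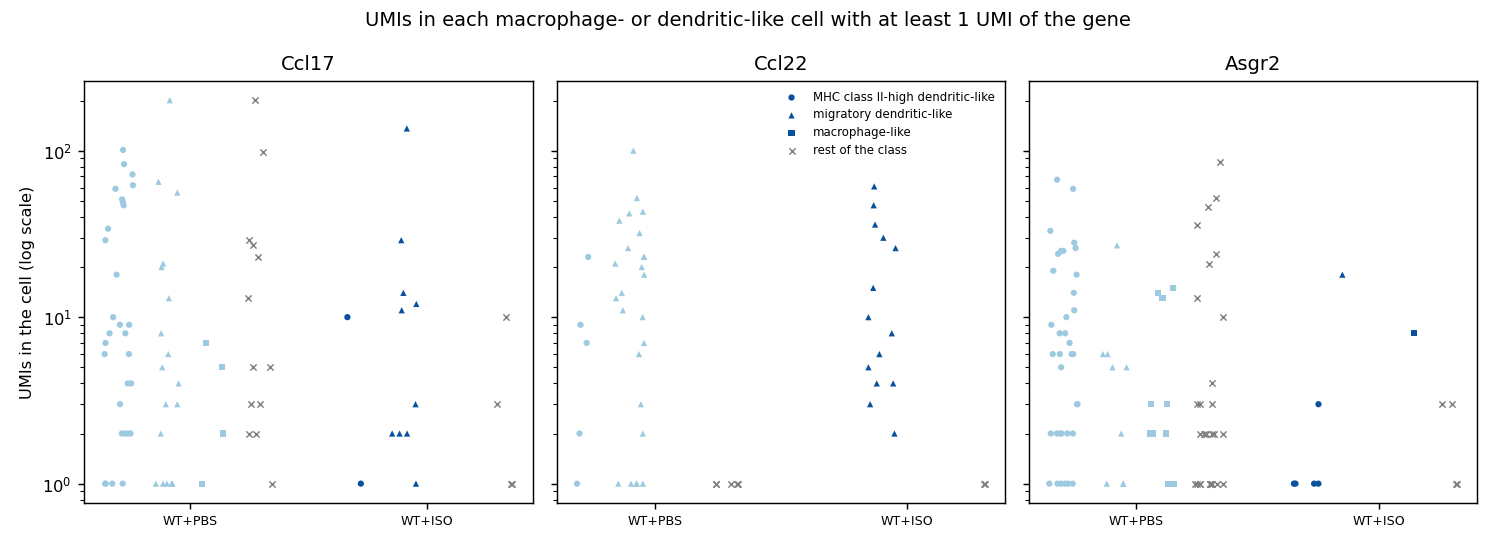
UMIs in each cell of the class that had at least 1 (vertical axis, logarithmic) for Ccl17, Ccl22 and Asgr2, by WT library, with a symbol for each group of the class and points spread sideways for sight. For Ccl17 in WT + ISO, the MHC class II-high group has 2 points, at 10 and 1 UMIs, and the migratory group has 10 points, the highest at 136.

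Lower Ccl17 went with fewer MHC class II-high cells in WT + ISO, which made up 16.5% and 6.23% of the class. The summed level of 8 dendritic cell markers in the class was 3023 and 1688 CPM, and that of 7 macrophage markers 422 and 214 CPM. That of 5 monocyte markers was 1867 and 1373 CPM, beside 1572 and 1559 CPM in neutrophil-like cells. Each sum of the class was lower in WT + ISO. Within the MHC class II-high group the dendritic sum was 8618 and 5826 CPM and the macrophage sum 845 and 345 CPM. The monocyte sum there was near level, at 929 and 932 CPM. The cells of this group were therefore not matched between the libraries. The part of the macrophage and monocyte markers in the result was not tested. Cells of the class outside the migratory group were split by their UMIs of H2-Aa, H2-Ab1 and H2-Eb1, a split chosen after seeing the data. Cells with at least 10 such UMIs numbered 47 and 14, and Ccl17 was found in 25 and 3 of them at 847 and 107 CPM. Among these cells WT + ISO was the lower, with a log2 ratio of -2.99 (-3.69 to -2.36). The bin has no upper limit, so MHC class II level was not matched within it, and the part of cell make-up was not tested. Among the 137 and 70 cells with 1 to 9 such UMIs Ccl17 had 439 and 3 UMIs in 13 and 1 cells (195 and 2.24 CPM), a log2 ratio of -6.44. Among the 222 and 175 cells with 0 such UMIs it had 34 and 2 UMIs in 9 and 2 cells, too few to be compared.

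**Figure D4:**
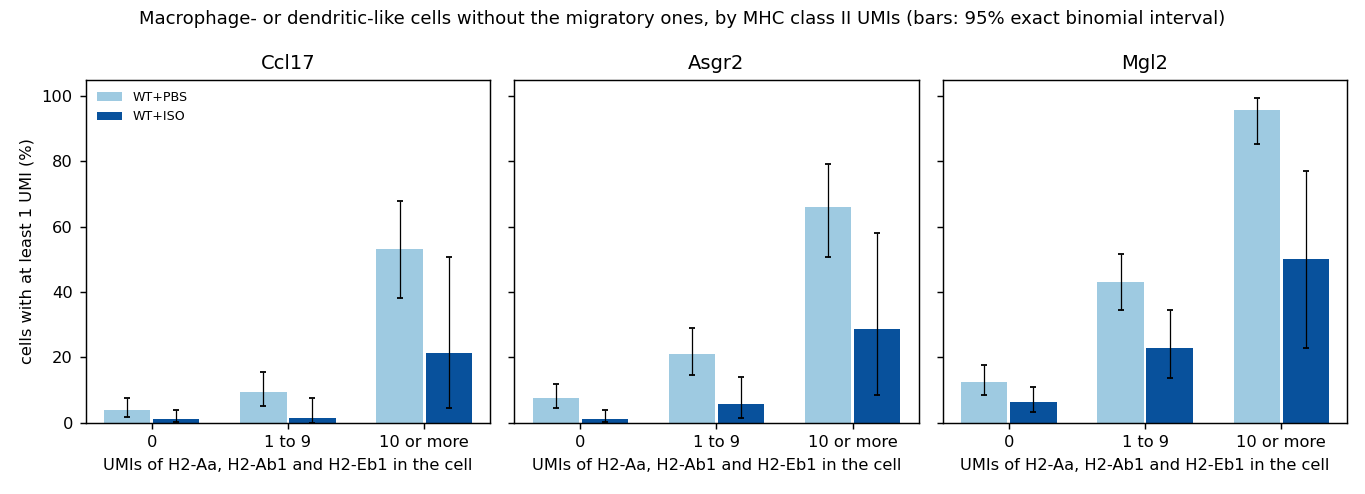
Share of cells with at least 1 UMI of Ccl17, Asgr2 and Mgl2 (vertical axis, percent) in the class outside the migratory group, split by UMIs of H2-Aa, H2-Ab1 and H2-Eb1 in the cell (horizontal axis), with 1 bar per WT library and 95% exact binomial intervals of counting error. Among cells with 10 or more such UMIs, Ccl17 is found in 53.2% and 21.4%, and the WT + ISO bar, from 14 cells, has the wider interval.

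Ccl22, the second Ccr4 ligand, was a gene of the migratory group. It had 559 and 278 UMIs in 38 and 27 cells, and 91.1% and 92.4% of these UMIs lay in the migratory cells. There it was found in 25 of 25 and 14 of 14 cells, with 509 and 257 UMIs (1442 and 1053 CPM). Every migratory cell thus had a UMI in both libraries, while the level was somewhat lower in WT + ISO. The log2 ratio was -0.45 (-0.68 to -0.23), close to that of Ccl17 in the same cells. Over the class the levels were 80.6 and 53.3 CPM and the ratio -0.60, with 389 genes lower than Ccl22. The migratory cells made up most of that sum. Without them the class had 47 and 2 UMIs of Ccl22 (7.18 and 0.434 CPM). WT + ISO was the lower there, but the UMIs were under the minimum, so no fold is read. In all cells they were 22.9 and 9.46 CPM, a ratio of -1.28, while 2 and 6 neutrophil-like cells had a UMI. In the MHC class II-high group Ccl22 had 42 and 0 UMIs in 5 and 0 cells. The 0 of 17 cells in WT + ISO allows a share of cells with a UMI of up to 17.6%, taken as 3 counts, or 19.5% by the exact binomial interval, and this does not limit the cells that express the gene. In WT + PBS a single cell held 23 of the 42 UMIs. Ccl22 did not reach 50 UMIs over both libraries of the group, so no fold is read there.

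Ccl5 was found in the same group of cells, and the order of the 2 libraries for it was not steady. It had 426 and 402 UMIs in 30 and 18 cells, and 95.5% and 89.3% of these UMIs lay in migratory cells. There it had 407 and 359 UMIs (1153 and 1471 CPM) in 16 of 25 and 9 of 14 cells. WT + ISO was the higher, at a log2 ratio of 0.35 (0.14 to 0.56), short of 2-fold. Without the top cell of each library the ratio in the migratory group was 0.10 (-0.18 to 0.37). The 1 cell with the most held 47.1% of the Ccl5 UMIs of the class in WT + ISO, and without the top cell of each library the ratio of the class moved from 0.29 to -0.02 (-0.29 to 0.25). In all cells Ccl5 stood at 17.5 and 13.7 CPM, a ratio of -0.35, so the order of the libraries turned between the class and all cells. Among neutrophil-like cells 2 and 6 had a UMI of Ccl5.

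Ccl24 was close to absent, with 11 and 4 UMIs. In the class it had 7 and 1 UMIs. No ratio is read at this depth.

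Asgr2 had the widest gap between the WT libraries of the 5 genes compared in the class. It had 975 and 123 UMIs in 106 and 21 cells. In the class it had 880 and 41 UMIs (128 and 8.44 CPM), in 86 and 11 cells, while 5 and 3 of the 926 and 1323 neutrophil-like cells had a UMI. The log2 ratio was -3.92 (-4.41 to -3.47), 15.1-fold lower, with 2 genes lower still. With the class drawn by UMIs of marker genes in place of clusters the ratio was -1.84. The level was lower in WT + ISO in every group of the class. Without the migratory group the class ratio of Asgr2 was -4.66 (-5.33 to -4.07). There Ccl17 had the wider gap of the 2 genes, at -4.92. In the MHC class II-high group Asgr2 had 444 and 7 UMIs (400 and 24.6 CPM) in 36 of 71 and 5 of 17 cells. The ratio was -4.02 (-5.34 to -2.97), while the shares of cells, 50.7% (38.6 to 62.8) and 29.4% (10.3 to 56.0), had overlapping intervals. In the macrophage-like group Asgr2 was at 83.1 and 16.0 CPM, a ratio of -2.37, in 12 of 57 and 1 of 41 cells. In the remainder it had 324 and 8 UMIs (68.4 and 2.09 CPM) in 29 of 278 and 4 of 201 cells, a ratio of -5.03 (-6.26 to -4.04). The migratory group had 54 and 18 UMIs in 9 of 25 and 1 of 14 cells, a ratio of -1.05 (-1.91 to -0.26). Among cells with at least 10 UMIs of the 3 MHC class II genes, Asgr2 was found in 31 of 47 and 4 of 14 cells, with a ratio of -4.43 (-5.88 to -3.30). Outside the class the gap in summed UMIs was smaller. The unnamed cluster led by Phgdh, a serine synthesis enzyme, had 88 and 79 UMIs of Asgr2, a log2 ratio of -0.50 (-0.96 to -0.05). The top cell of each library held 63 and 52 of these UMIs, which leaves the ratio resting mostly on single cells. Asgr2 was found there in 13 of 224 and 7 of 273 cells, shares of 5.80% (3.13 to 9.72) and 2.56% (1.04 to 5.21).

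Mgl2 was found in 251 and 212 cells with 2011 and 850 UMIs, more cells than any of the other 5 genes. In the class it had 1306 and 361 UMIs (189 and 74.3 CPM) in 143 of 431 and 41 of 273 cells. WT + ISO was again the lower, although by less than for Ccl17 or Asgr2. In neutrophil-like cells 4.10% (2.92 to 5.59) and 7.94% (6.54 to 9.53) of cells had a UMI, at a median depth of 7445 and 9158 UMIs. With cells thinned to 2000 UMIs these shares were 1.01% (0.464 to 1.91) and 1.31% (0.762 to 2.08), whose intervals overlapped. The log2 ratio of CPM there was 0.26 (-0.10 to 0.63). Thinning left few cells with a UMI, so the part of depth in the gap before thinning was not tested. The log2 ratio in the class was -1.35 (-1.52 to -1.18), with 59 genes lower still. With the class drawn by UMIs of marker genes in place of clusters it was -0.34, short of 2-fold. In the MHC class II-high group Mgl2 was found in 54 of 71 and 5 of 17 cells, at a ratio of -1.50 (-1.95 to -1.08). In the macrophage-like group it stood at 215 and 70.2 CPM, a ratio of -1.62 that became -3.87 without the 1 cell with the most Mgl2 in each library. In the remainder of the class the ratio was -0.86 and in the cluster led by Phgdh, which held 28.3% and 35.2% of the Mgl2 UMIs, it was -1.28. Among cells with at least 10 UMIs of the 3 MHC class II genes the ratio was -1.14.

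Ccl17 was found mostly in cells that carried Mgl2 and the MHC class II gene H2-Aa, and Ccl22 and Ccl5 mostly in cells with Ccr7. Of the 65 and 16 cells of the class with Ccl17, 48 and 13 had H2-Aa and 52 and 9 had Mgl2. Asgr2 was found in 38 and 4 of them, or 58.5% and 25.0%, and Ccl22 in 23 and 10, or 35.4% and 62.5%. Ccr7 was found in 18 and 10. The cells with Ccl17 in WT + ISO thus carried Ccl22 more often than Asgr2, and those in WT + PBS Asgr2 more often than Ccl22, a difference that was not tested. Of the 35 and 16 cells with Ccl22, 25 and 14 had Ccr7. Of the 21 and 9 cells with Ccl5, 17 and 9 had Ccr7 and 16 and 9 had Ccl22. Of the 86 and 11 cells with Asgr2, 69 and 8 had Mgl2. A cell with more UMIs has more chance of showing any gene, and these shares were not adjusted for depth.

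**Figure D5:**
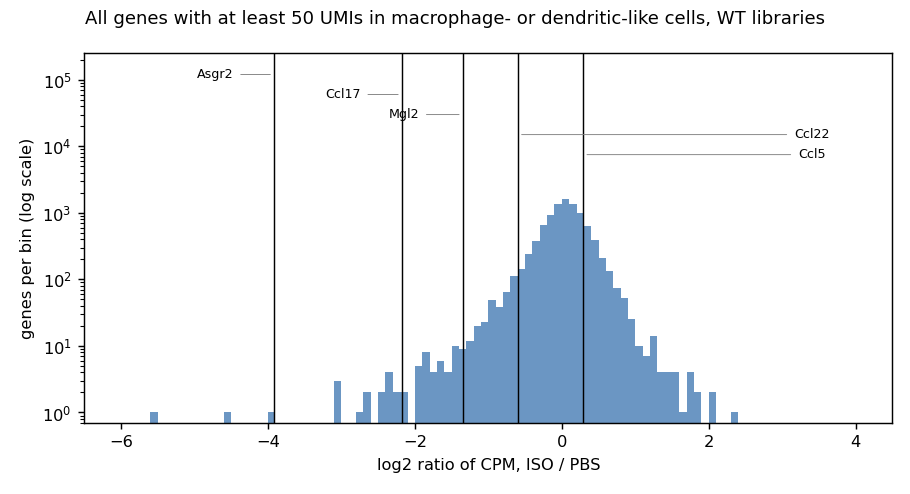
Number of genes (vertical axis, logarithmic) by log2 ratio of CPM, ISO over PBS (horizontal axis), in the class of the WT libraries for all genes with at least 50 UMIs, with 5 of the 6 genes as vertical lines. Asgr2, at -3.92, and Ccl17, at -2.18, lie in the sparse left tail, while Ccl22 is at -0.60, with 4.03% of the genes at or below it, and Ccl5 at 0.29.

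Lists of genes around the members were read against all genes of the class, of which 1.24% were at least 2-fold lower and 0.548% at least 2-fold higher. All 8 genes of MHC class II presentation were below 0 in the class, with a median log2 ratio of -0.84 beside 0.05 over all genes, and H2-DMb2 and Ciita, the MHC class II transactivator, were at least 2-fold lower, at -1.13 and -1.54. The class held fewer MHC class II-high cells in WT + ISO, and within that group 0 of the 8 passed 2-fold, with a median of -0.56, H2-DMb2 at -0.80 and Ciita at -0.56. Of 14 genes of interleukin-4 and Stat6 signalling, 1 was at least 2-fold lower, the mannose receptor Mrc1, at 178 and 57.0 CPM with a log2 ratio of -1.64 (-1.84 to -1.45), and the list's median was -0.36. Of the 14 genes 10 were below 0, among them Tgm2 at -0.97 and Arg1 at -0.96, while Socs1 was at 0.49. The receptor gene Il4ra, at 84.5 and 80.3 CPM, and Stat6 itself, at 48.7 and 49.6 CPM, were near level. Irf4, a factor of Mgl2-bearing dendritic cells, was at 31.0 and 22.2 CPM. Within the MHC class II-high group 12 genes of the interleukin-4 and Stat6 list were compared, with a median of -0.09 and 6 below 0. Of these 12, 2 were at least 2-fold lower, Mrc1 at -1.63 and Egr2 at -1.18, beside 3.76% of all genes of the group.

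In the class, the other lists held few genes past 2-fold, as did the list of interleukin-4 and Stat6. Of 13 genes of GM-CSF, Stat5 and Irf4 signalling 0 passed in either direction, with a median of 0.01. Of 11 NF-kB genes of dendritic cell maturation 0 passed and 10 were below 0. Their median was -0.20, and the costimulatory gene Cd86 was at -0.69. Of 11 cAMP response genes 1 was at least 2-fold lower, the growth factor Areg, at 12.6 and 2.47 CPM and a log2 ratio of -2.35 (-3.36 to -1.47). Of the 11 genes 9 were below 0, and the list median was -0.34. The other CC chemokines Ccl3, Ccl4, Ccl6 and Ccl9 had log2 ratios of 0.31, -0.44, 0.31 and 0.39, so in the class none of the 4 was near the ratio of Ccl17. Within the MHC class II-high group they were at 1.39, -1.14, 0.57 and 0.86. There Ccl3 and Ccl4 passed 2-fold in opposite directions, beside 3.76% of genes at least 2-fold lower and 2.05% at least 2-fold higher. The chemokine receptor gene Ccr1 was at 0.15 in the class. Clec10a, a related lectin gene that lies close to Mgl2 in the genome, was at 36.8 and 20.2 CPM in the class, a ratio of -0.87. Within the MHC class II-high group Clec10a was near level, at 73.8 and 77.4 CPM and a ratio of 0.07 (-0.68 to 0.76). Cx3cl1, between Ccl22 and Ccl17, had 17 and 13 UMIs, under the minimum.

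The genes whose levels were most like each member over the sums of cells per group in each of the 4 libraries are given as a description, since these sums share libraries and depth. Over 41 sums of at least 50 cells and 11704 genes, Ccl17 was most like Igflr1 (Pearson correlation 0.897), Plet1 (0.890), Pxdc1 (0.882), Klrb1b (0.875) and P2rx5 (0.875). For Ccl22 these were Rtn1 (0.966), Klrd1, Ctnnd2, Asb2 and Adam23, for Asgr2 Fcrls (0.962), Ly86, Susd4, Frmd4b and Gpr85, and for Mgl2 Bmyc (0.954), Grk3, Gdi2, Chchd6 and Rab3il1. Sums of at least 50 cells leave out the migratory group, which held most Ccl22 UMIs, so the names for Ccl22 at this setting rest on few UMIs. Among others, sums of this size also leave out the MHC class II-high group (17 cells) and the macrophage-like group (41 cells) of WT + ISO. With sums of at least 10 cells, 52 in all and a setting chosen after seeing the data, Ccl5 was most like Ccr7 (0.995) and Ccl22 most like Il4i1 (0.987), Dpp4 and Fscn1. Ccl17 was then most like Hepacam2 (0.900), Asgr2 most like Frmd4b (0.919) and Mgl2 most like Axl (0.909), and Frmd4b was the one name held over both settings for Asgr2, as Gdi2 was for Mgl2.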

How the data were processed

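Single-cell RNA sequencing (10x Genomics, 3' UMI counts) of 4 pooled and tagged MDSC samples was used. The deposited matrices hold raw UMI counts per gene and cell barcode, already assigned to samples by the authors. Their headers name Cell Ranger 7.0.0, while the submitters' processing notes name Cell Ranger 6.0.0, Seurat and mm10, and the counting of introns is not given in the sources used here. The titles gave the groups, of 1 library each. All 4 libraries entered the clustering, and results of 2 of them are not reported here.

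Barcodes under 200 genes or over 10% mitochondrial UMIs were left out. Counts were scaled to 10000 per cell, and 2000 variable genes without members and list genes, 30 principal components, 15 neighbours and Leiden clustering at resolution 0.4 were used (scanpy 1.11.5, Python 3.11.15). The class was divided again at resolution 0.5 with 20 components. Scrublet called 1 doublet (0.0107%), so it did not work and doublets were kept. Clusters were named from fixed markers. UMIs were summed per library and group and given per 1000000 UMIs (CPM) with exact Poisson intervals, shares with Clopper-Pearson intervals and log2 ratios with conditional binomial intervals, at 95% (scipy 1.17.1). UMIs of 1 cell are not independent, so these cover counting error only. Genes with at least 50 UMIs over both libraries were compared, a 0 was set to 3 UMIs, and 2-fold was the limit. No test was made, since each group is 1 library, and no p-value is given. The fold rule was tested on simulated sums of independently drawn UMIs. That cannot show how the rule behaves where 1 cell holds many UMIs of a gene. Named genes were the 6 members, list genes past 2-fold or among the most abundant of a list or close to a member, and the 5 genes with the highest Pearson correlation of log2(CPM + 10) among genes with at least 100 UMIs. Members and lists were chosen with earlier results of these data known. Promoter windows are from RefSeq, GRCm38.p6, with 4 of the 6 members matched.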

Additional observations from a re-analysis of the deposited data

How the results depend on the processing

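The Ccl17 ratios were recomputed in 21 alternatives. None of the 21 reversed, 12 moved by less than their interval and 9 by more, but 2 of the 12 removed doublets, of which 0 were called in either library, and could not move. In the class (-2.18), Ccl17 was at -2.87 with equal weight per cell, -3.19 without the 1 cell with the most Ccl17 in each library, -1.83 and -1.94 at Leiden resolutions of 0.6 and 1.0, -1.57 with the class drawn by UMIs of marker genes, -1.26 with sub-clusters at equal weights and -4.92 without migratory cells, an alternative chosen after seeing the data. In all cells (-2.92) it was at -3.46 with equal weight per cell and -3.88 without the top cell. With the class drawn by UMIs, Asgr2 (-3.92) was at -1.84 and Mgl2 (-1.35) at -0.34, which ends its 2-fold call. Of 83 ratios of the other genes, 26 moved by more than their interval and 2 reversed: Ccl22 in the class was at 0.0138 with the class drawn by UMIs, and Ccl5 in the class at -0.0202 without the top cell. The causes were not tested. Without the sub-cluster led by Ngp and Camp, added after seeing the data, Ccl17 was at -2.21. Of 36 shares, 17 moved beyond their interval when 2 UMIs were asked for or cells were thinned. No paired analysis was possible because no result comes from a test, with 1 library in each group. The 25 and 14 migratory cells and the 17 MHC class II-high cells of WT + ISO limit what counts there can show.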
